A study of Mus musculus with 6 samples.

Results

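The inflammatory CC chemokine genes of mouse chromosome 11, namely Ccl2, Ccl7, Ccl12, Ccl8, Ccl3, Ccl4, Ccl5, Ccl6 and Ccl9, were compared between foamy and non-foamy macrophages of the atherosclerotic aorta. The genes were taken by symbol and are 9 of the 41388 genes in each count table. All 9 passed the filter on low counts and were tested together with 11303 genes in all. RNA came from the aortic intima of C57BL/6 mice of the genotype ApoE-/-, which lack apolipoprotein E and develop atherosclerotic plaques. The design gives 6 mice fed a diet labelled WD for 28 weeks, and states neither age nor sex. Foamy cells were PI-, CD64+ and CD11b+, with high side scatter and a high signal for BODIPY493/503, which stains neutral lipid. Non-foamy cells met the same gates with both signals low. Both groups carry the ApoE-/- genotype and the same diet, so the comparison is between sorted cells of one disease model, and no wild-type library was analysed here. Each group has 3 libraries. The sources used here do not say which of the 6 mice went into which library, and p-values therefore measure only how the libraries vary, which may be technical.

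Total counts in genes ran from 15628627 to 24619075 per library. Apoe itself lay between 2.60 and 7.02 CPM, the count of a gene scaled to a library of fixed size, in the 6 libraries. Levels are given after normalization by the trimmed mean of M values (TMM), which rescales each library for differences in composition. Fcgr1, which encodes CD64, lay between 129 and 273 CPM, and Itgam, which encodes CD11b, between 70.3 and 151 CPM, so both sort markers were present in all libraries. Of all tested genes, 611 (5.41%) passed the test, 328 lower and 283 higher in foamy libraries at an adjusted p under 0.05 (edgeR quasi-likelihood test adjusted by Benjamini-Hochberg over all tested genes), and the median log2 fold change was -0.04. Scaled to total counts alone, without TMM, 614 were lower and 165 higher, and the median of all genes was -0.31.

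Chemokines are small secreted proteins that steer leukocytes along a gradient through G protein-coupled receptors. In CC chemokines the first pair of conserved cysteines is adjacent, and the cysteines hold the fold of the mature protein by disulfide bonds. The genes lie in tandem arrays that grew by duplication, and several encode ligands of the same receptor. In the plaque, Ccl2 and its receptor Ccr2 are known for the recruitment of blood monocytes, and activated macrophages are a main source of Ccl3 and Ccl4. NF-kB and AP-1 factors are known to switch many of these genes on within a short time.

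The feature that gives the family its name is shown as 30 bases of the coding sequence of 8 of the genes, read from GENCODE M21 transcripts on GRCm38, with the adjacent cysteine codons in capitals. They show what the genes share as proteins, apart from their levels.
Ccl2: gccccactcaccTGCTGCtactcattcacc
Ccl7: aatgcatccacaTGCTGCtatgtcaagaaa
Ccl12: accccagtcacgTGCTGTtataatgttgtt
Ccl8: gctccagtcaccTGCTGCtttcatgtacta
Ccl4: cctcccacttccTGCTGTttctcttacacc
Ccl5: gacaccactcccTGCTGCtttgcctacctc
Ccl6: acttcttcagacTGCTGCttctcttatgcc
Ccl9: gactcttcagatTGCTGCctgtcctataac
The first cysteine codon of the pair is codon 34 in Ccl2 and Ccl4, 33 in Ccl7, Ccl12 and Ccl5, and 32 in Ccl8. In Ccl6 and Ccl9 it is codon 50 and codon 57, so these members have a longer stretch before the pair. Ccl12 and Ccl4 carry TGCTGT, and the other 6 shown carry TGCTGC. Over all 36 pairs of members, the longest run of identical bases between their transcripts was 25 bases, between Ccl6 and Ccl9, followed by 23 bases between Ccl2 and Ccl7. Both are shorter than the 50-base reads.

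Of the 9 chemokine genes, 5 fell in foamy macrophages and none rose. Ccl2, Ccl7, Ccl12, Ccl3 and Ccl4 were 6.10 to 10.1 times lower, while Ccl8, Ccl5, Ccl6 and Ccl9 did not pass the test. Among all tested genes, 2.9% were called lower and 2.5% higher. The median log2 fold change of the 9 genes was -2.61. None of the 4 genes that missed the threshold had an unadjusted p under 0.05 in edgeR. In these 5 genes each foamy library lay below each non-foamy library, which held for 13.3% of all tested genes. In bulk RNA, fewer cells of a type and less RNA per cell cannot be told apart.

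**Figure D1:**
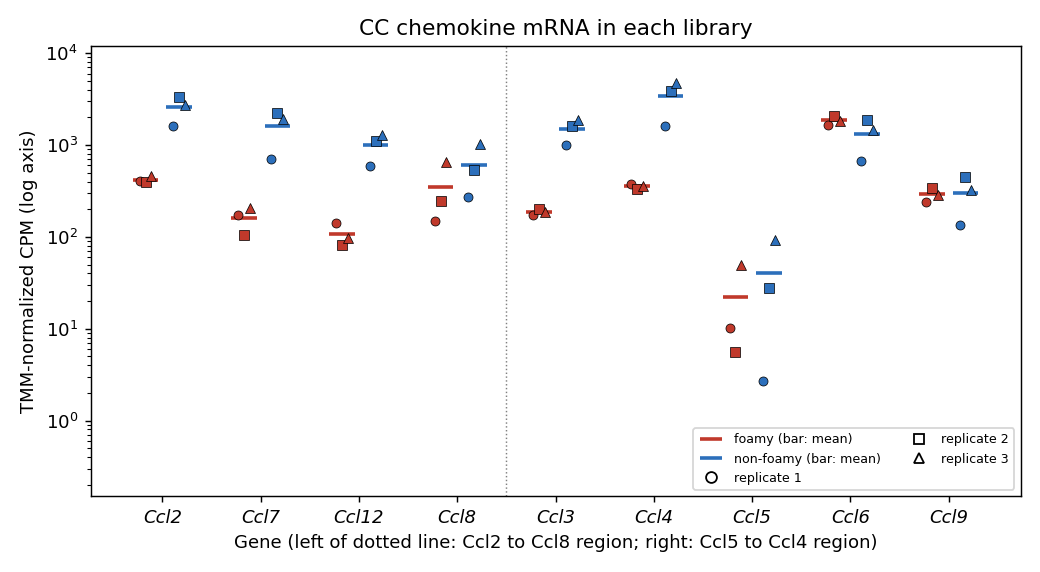
TMM-normalized CPM (log axis) of the 9 chemokine genes in each library, foamy in red and non-foamy in blue, with a symbol per replicate and a bar at the mean of 3 libraries. For Ccl2, Ccl7, Ccl12, Ccl3 and Ccl4 the red and blue symbols do not overlap, and for Ccl8, Ccl5, Ccl6 and Ccl9 they do.

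The monocyte chemoattractant group lies on the plus strand. Ccl2 (ENSMUSG00000035385, chr11:82035571-82037453) encodes the main ligand of Ccr2. In foamy replicates 1 to 3 its level was 407, 399 and 458 CPM, and in non-foamy replicates 1 to 3 it was 1630.1, 3355 and 2724 CPM. The foamy libraries differed little among themselves, and each lay below the lowest non-foamy library. The mean was 421 ± 32.3 CPM (SD, n = 3) against 2569.6 ± 873 CPM, or 6.10-fold lower (95% interval 4.14 to 8.98; edgeR log2 fold change -2.61, SE 0.25, adjusted p = 0.000184).

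Ccl7 (ENSMUSG00000035373, chr11:82045712-82047525) encodes a chemoattractant of monocytes that binds Ccr2 and other CC receptors. It stood at 172, 104 and 204 CPM in the foamy and at 701, 2240.2 and 1902 CPM in non-foamy replicates 1 to 3. Foamy replicate 2 and non-foamy replicate 1 were the low libraries of their groups, and the groups did not overlap. Its log2 fold change of -3.33 (edgeR, SE 0.41, adjusted p = 0.000841) corresponded to a level 10.1-fold lower (95% interval 5.43 to 18.7; 159.98 ± 51.0 against 1614 ± 809 CPM, SD, n = 3). Ccl12 (ENSMUSG00000035352, chr11:82101845-82103400), a mouse ligand of Ccr2, stood at 140.4, 81.1 and 97.8 CPM in the foamy and at 589, 1112 and 1301 CPM in non-foamy replicates 1 to 3. All foamy values were below all non-foamy ones. Its mean was 106 ± 30.6 CPM (SD, n = 3) against 1000.6 ± 369 CPM. It was 9.40-fold lower in foamy libraries (95% interval 5.81 to 15.2; edgeR log2 fold change -3.23, SE 0.32, adjusted p = 0.000185). The 95% intervals of Ccl2, Ccl7 and Ccl12 overlap one another.

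Ccl8 (ENSMUSG00000009185, chr11:82115185-82116799) is the last gene of the group and in the mouse encodes a ligand of Ccr8. It did not follow its neighbours past the test. Its level was 149.7, 243 and 661 CPM in the foamy and 272, 529 and 1038 CPM in non-foamy replicates 1 to 3. Foamy replicate 3 exceeded 2 non-foamy libraries, so the groups overlap, although within each replicate number the foamy value was the lower. The log2 fold change was -0.80 (edgeR, SE 0.63, 95% interval -2.28 to 0.67, adjusted p = 0.586). With the replicate number as a block in the model it was -0.88 (edgeR adjusted p = 0.0603), which also missed the threshold. Fibroblast markers, led by Dcn and Lum, were highest in replicate 3 of each group. Their summed level over 6 genes was 6.69, 2.84 and 170.7 CPM in the foamy and 129.6, 11.8 and 306.7 CPM in non-foamy replicates 1 to 3. Non-foamy replicate 1, the lowest non-foamy library for Ccl8, thus held more of them than non-foamy replicate 2. No fibroblast marker passed the test (0 of 5 tested), and their part in the Ccl8 level was not tested.

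The macrophage inflammatory protein group showed the same division. Ccl3 (ENSMUSG00000000982, chr11:83647844-83649355, minus strand) encodes a ligand of Ccr1. It stood at 172, 202 and 185 CPM in the foamy and at 1011, 1626 and 1853 CPM in non-foamy replicates 1 to 3. The lowest non-foamy library was far above the highest foamy one. The mean was 186 ± 15.1 CPM (SD, n = 3) against 1497 ± 436 CPM. It was 8.03-fold lower (95% interval 5.58 to 11.5; edgeR log2 fold change -3.0, SE 0.24, adjusted p = 5.6e-05), with the smallest p of the 9 genes.

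Ccl4 (ENSMUSG00000018930, chr11:83662584-83664683, plus strand) encodes a chemoattractant made by activated macrophages and is the next gene to Ccl3. Its level was 375, 334 and 354 CPM in the foamy and 1626, 3877 and 4794 CPM in non-foamy replicates 1 to 3. The foamy libraries were close to one another, while the non-foamy ones differed widely, with means of 354 ± 20.4 and 3432 ± 1630.2 CPM (SD, n = 3). The log2 fold change was -3.28 (edgeR, SE 0.34, adjusted p = 0.000259), or 9.69-fold lower (95% interval 5.77 to 16.3).

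Ccl5 (ENSMUSG00000035042, chr11:83525778-83530518, minus strand), a ligand of Ccr1 and Ccr3 that T and NK cells make in quantity, was the least abundant of the 9. It stood at 10.2, 5.52 and 49.99 CPM in the foamy and at 2.71, 27.8 and 91.9 CPM in non-foamy replicates 1 to 3. The lowest and the highest value of all 6 were both in non-foamy libraries. Its log2 fold change of -0.90 (edgeR, SE 1.25, 95% interval -3.92 to 2.12, adjusted p = 0.795) was -2.37 without foamy replicate 3 and 0.53 without non-foamy replicate 3, so no direction can be given. Of 13 T and NK cell markers, 10 were under 1 CPM in all 6 libraries. Cd3e was at 0 in 5 libraries and at 0.055 CPM in non-foamy replicate 2. Cd3d and Trac were highest in non-foamy replicate 3, at 1.10 and 0.905 CPM, the library with the most Ccl5. The marker list summed to 17.1 to 22.2 CPM in the foamy and 1.19 to 3.74 CPM in the non-foamy libraries, most of it Cd4, which macrophages can express; Cd4 and Klrb1c were the 2 markers tested, and both were higher in foamy libraries. The part of these cells in the Ccl5 level was not tested.

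Ccl6 and Ccl9 encode ligands of Ccr1 that myeloid cells make, and neither passed the test. Ccl6 (ENSMUSG00000018927, chr11:83587882-83593087, minus strand) stood at 1654, 2062 and 1838 CPM in the foamy and at 662, 1866 and 1444 CPM in non-foamy replicates 1 to 3. Non-foamy replicate 1 was low, and non-foamy replicate 2 lay within the foamy range. The log2 fold change was 0.48 (edgeR, SE 0.30, 95% interval -0.18 to 1.15, adjusted p = 0.457), an interval that leaves out a fall of the size seen in Ccl2. Ccl9 (ENSMUSG00000019122, chr11:83572919-83578636, minus strand) stood at 239.97, 343 and 285 CPM in the foamy and at 134, 444 and 326 CPM in non-foamy replicates 1 to 3. The non-foamy values surrounded the foamy ones. Its log2 fold change was -0.06 (edgeR, SE 0.34, 95% interval -0.81 to 0.70, adjusted p = 0.965).

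**Figure D2:**
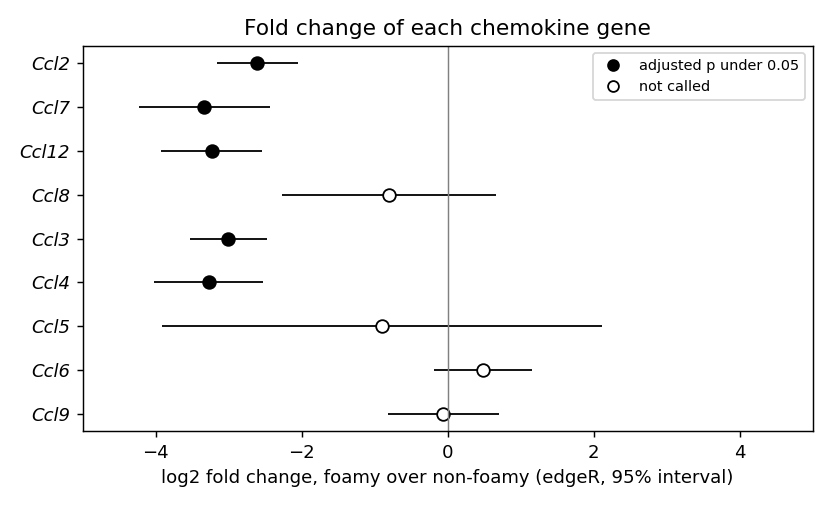
Log2 fold change of each chemokine gene, foamy over non-foamy, from edgeR, with bars for the 95% interval; filled points have an adjusted p under 0.05. The 5 filled points lie between -3.33 and -2.61, and the intervals of the 4 open points cross 0.

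The calls of the 9 genes did not depend on the settings tried. Ccl2, Ccl7, Ccl12, Ccl3 and Ccl4 were called lower, and Ccl8, Ccl5, Ccl6 and Ccl9 were not called, in all 15 alternatives, which include each library left out. Against a 1.5-fold change, which 1.51% of all tested genes passed as lower, the 5 were still called. Over the 15 alternatives the log2 fold change ran from -2.86 to -2.37 for Ccl2, from -3.25 to -2.81 for Ccl3 and from -3.62 to -2.95 for Ccl4. For Ccl7 it ran from -3.70 to -3.02, and for Ccl12 from -3.51 to -2.99. Non-foamy replicate 1 was the lowest non-foamy library for all 9 genes, which held for 35.6% of all tested genes. Scaled to total counts alone it was again the lowest for all 9, against 28.7% of tested genes.

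To compare the genes with one another, levels were also taken per kilobase, using the table's gene length (TMM-normalized RPKM). In non-foamy libraries Ccl4 had the highest mean per-kilobase level, at 5200.03 RPKM, followed by Ccl2 at 2258, Ccl7 at 2015, Ccl3 at 1954, Ccl12 at 1863 and Ccl8 at 1199.8 RPKM. Ccl7, Ccl3 and Ccl12 did not differ in level beyond their spread: non-foamy replicates 2 and 3 held each of them between 2071 and 2797 RPKM. Below them were Ccl6 at 738, Ccl9 at 98.9 and Ccl5 at 42.5 RPKM.

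In foamy libraries the order was another. Ccl6 had the highest mean per-kilobase level, at 1031.5 RPKM, followed by Ccl8 at 688, Ccl4 at 537, Ccl2 at 370, Ccl3 at 243, Ccl7 at 199.7, Ccl12 at 198, Ccl9 at 95.1 and Ccl5 at 22.8 RPKM. Ccl8 spread from 293 to 1294 RPKM and so overlapped both Ccl6 and Ccl4. Ccl7 and Ccl12 did not differ beyond their spread either. The table lengths of Ccl2, Ccl5, Ccl6 and Ccl9 exceed that of the protein-coding transcript. With the length of that transcript, an alternative chosen after seeing the data, Ccl2 stood at 518 RPKM in foamy and 3161 RPKM in non-foamy libraries, and Ccl6 at 1286 and 920 RPKM. Neither order of the means changed. On that length Ccl2 stood at 2005, 4126 and 3351 RPKM in non-foamy replicates 1 to 3, above Ccl7, Ccl3 and Ccl12 in each of them. On the table length it was above them in non-foamy replicates 1 and 2. In replicate 3 it was below Ccl3 and Ccl12 (2394 against 2419 and 2423 RPKM). On both lengths the range of Ccl2 over the non-foamy libraries overlapped theirs.

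Together the 9 genes took 0.288%, 0.364% and 0.371% of all counts in foamy replicates 1 to 3. In non-foamy replicates 1 to 3 the shares were 0.783%, 1.62% and 1.60%. The lowest non-foamy share was above the highest foamy one. Within the summed per-kilobase level of the 9 genes, Ccl6 made up 31.5%, 36.5% and 25.1% in foamy replicates 1 to 3, against 4.54%, 5.76% and 4.04% in the 3 non-foamy libraries. Ccl4 made up 19.4%, 16.1% and 13.1% against 30.3%, 32.5% and 36.5%. The share of Ccl8 in foamy libraries depended on the library, at 9.998%, 15.1% and 31.7% in replicates 1 to 3, against 5.73% to 10.2% in non-foamy libraries. A share rises when another member falls, so these are values of the mixture and not further evidence on a gene.

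**Figure D3:**
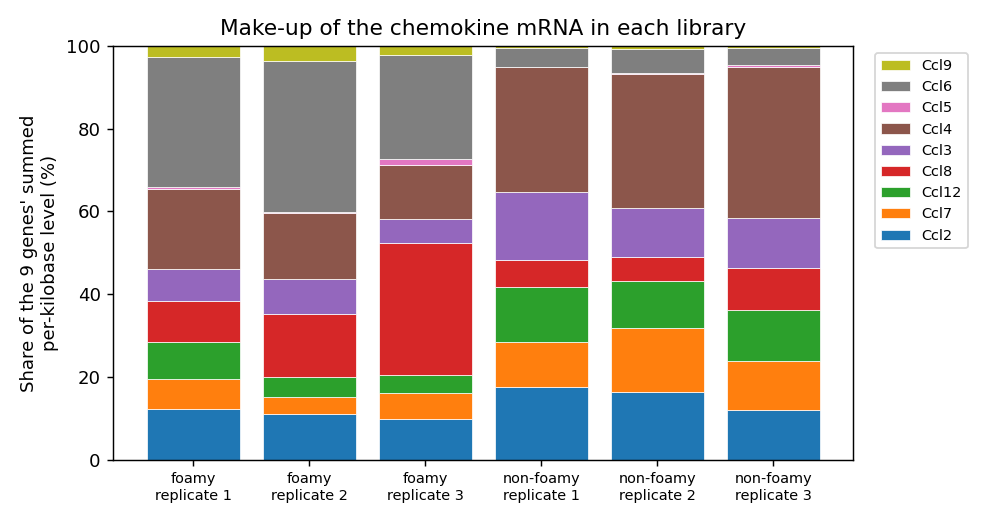
Share (%) of the summed per-kilobase level of the 9 chemokine genes taken by each gene, stacked to 100% for each of the 6 libraries. Ccl6 fills 25.1% to 36.5% of the foamy bars and 4.04% to 5.76% of the non-foamy bars.

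Ratios within a library compare pairs of genes without any scaling between libraries. The per-kilobase ratio of Ccl2 to Ccl6 was 0.388, 0.305 and 0.393 in foamy and 3.88, 2.84 and 2.97 in non-foamy replicates 1 to 3. Ccl6 exceeded Ccl2 in each foamy library, and Ccl2 exceeded Ccl6 in each non-foamy library. The ratio of Ccl6 to its paralog Ccl9 was 11.7, 10.2 and 10.9 in foamy and 8.38, 7.13 and 7.52 in non-foamy replicates 1 to 3. These groups did not overlap, although neither gene passed the test alone. The exact two-sided permutation test gave p = 0.1 for both ratios, the smallest that 3 against 3 libraries allow (Benjamini-Hochberg p = 0.2 over 4 pairs). The ratio of Ccl2 to Ccl7 was 1.66, 2.70 and 1.58 against 1.64, 1.05 and 1.01 (difference of the mean log2 ratio 0.68, exact p = 0.2, adjusted p = 0.267). The ratio of Ccl3 to Ccl4 overlapped fully, at 0.396, 0.522 and 0.450 against 0.536, 0.361 and 0.333 (difference 0.18, exact p = 0.6, adjusted p = 0.6). No pair can reach an adjusted p under 0.05 in this design.

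On chromosome 11 (GRCm38) the members form a region from Ccl2 to Ccl8 of 81.2 kb and one from Ccl5 to Ccl4 of 138.9 kb, 1409 kb apart. Each region holds members that fell and members that did not pass the test. Within 250 kb on either side of the first region no gene other than the 4 members passed the filter. Ccl11, between Ccl7 and Ccl12, had 1 count in all 6 libraries. Around the second region 7 other genes reported here were tested and 0 were called in either direction by edgeR; 1 of them, Wfdc17, passed an unadjusted threshold of 0.05. These neighbours were AA465934, Snord7, Ap2b1, Taf15, Wfdc17, Wfdc18 and Heatr6. In AA465934, Snord7 and Taf15 each foamy library lay below each non-foamy one, as in 13.3% of all tested genes. They were at or below 4.79 CPM (edgeR log2 fold change -1.23, -1.43 and -1.14, adjusted p = 0.575, 0.616 and 0.511). In Wfdc17 each foamy library lay above each non-foamy one, as in 12.4% of all tested genes. In Ap2b1, Wfdc18 and Heatr6 the groups overlapped. Wfdc17, which encodes a secreted protein of activated macrophages and lies beyond Ccl4, stood at 3312 ± 666 CPM (SD, n = 3) in the foamy and 2059.8 ± 418 CPM in the non-foamy libraries. Its log2 fold change was 0.69 (edgeR, SE 0.21, adjusted p = 0.0949), and it was called in 2 of 15 alternatives, DESeq2 and the fit with no filter. Ap2b1, which encodes a clathrin adaptor subunit, stood at 23.1 ± 3.85 CPM in the foamy and 25.5 ± 2.97 CPM in the non-foamy libraries (edgeR log2 fold change -0.14, SE 0.28, adjusted p = 0.859). Heatr6 was at 8.58 against 12.4 CPM (edgeR log2 fold change -0.53, adjusted p = 0.565), and Wfdc18 at 9.24 against 8.72 CPM (edgeR log2 fold change 0.08, adjusted p = 0.958). Genes overlap Ccl2 and Ccl6 on the opposite strand, Gm17268 with 2 counts and E230016K23Rik with 55 counts over all 6 libraries. Whether counting used strand is not given here, so their reads cannot be told apart from those of the members.

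**Figure D4:**
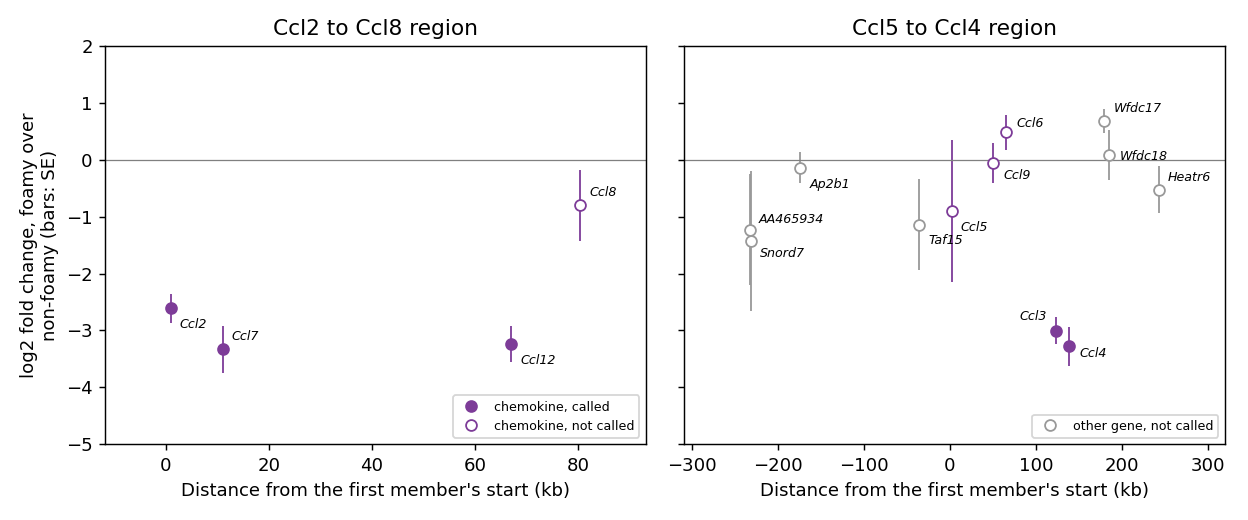
Log2 fold change, foamy over non-foamy, of the tested genes reported within 250 kb of the Ccl2 to Ccl8 region (left) and of the Ccl5 to Ccl4 region (right), plotted against distance in kb from the start of the first member, with bars for the SE; chemokine genes are purple, other genes grey, and filled points have an adjusted p under 0.05. In the second region no grey point is filled, and Ccl3 and Ccl4 lie near -3.0 and -3.28.

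RefSeq promoter sequences (GRCm38.p6) were at hand for Ccl12, Ccl8, Ccl3, Ccl6 and Ccl9. The 250 bases before the start site are shown for a pair of adjacent genes on the plus strand, Ccl12, which fell, and Ccl8, which did not pass the test, and for Ccl3 and Ccl9 on the minus strand. All are written 5′ to 3′ on the strand of the gene, with motif matches in capitals. The motifs searched on both strands were the kB consensus, which NF-kB binds, TGANTCA, which AP-1 binds, TTGCNNAA, which C/EBP binds, and the TATA box letters TATAAA.
Ccl12, chr11:82101595-82101844: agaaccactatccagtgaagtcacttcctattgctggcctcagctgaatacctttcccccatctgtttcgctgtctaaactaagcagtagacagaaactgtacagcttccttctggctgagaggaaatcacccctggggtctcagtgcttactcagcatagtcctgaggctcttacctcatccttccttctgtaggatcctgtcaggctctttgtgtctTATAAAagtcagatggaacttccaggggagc
Ccl8, chr11:82114935-82115184: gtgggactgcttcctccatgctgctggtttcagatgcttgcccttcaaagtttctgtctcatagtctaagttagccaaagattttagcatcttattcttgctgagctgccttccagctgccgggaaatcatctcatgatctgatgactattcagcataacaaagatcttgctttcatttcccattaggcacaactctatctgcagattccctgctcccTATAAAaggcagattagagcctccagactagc
Ccl3, chr11:83649379-83649628: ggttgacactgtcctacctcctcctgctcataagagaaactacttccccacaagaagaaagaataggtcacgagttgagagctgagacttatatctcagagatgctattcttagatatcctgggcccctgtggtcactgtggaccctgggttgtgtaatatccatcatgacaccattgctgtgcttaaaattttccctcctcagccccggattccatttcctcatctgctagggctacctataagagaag
Ccl9, chr11:83578637-83578886: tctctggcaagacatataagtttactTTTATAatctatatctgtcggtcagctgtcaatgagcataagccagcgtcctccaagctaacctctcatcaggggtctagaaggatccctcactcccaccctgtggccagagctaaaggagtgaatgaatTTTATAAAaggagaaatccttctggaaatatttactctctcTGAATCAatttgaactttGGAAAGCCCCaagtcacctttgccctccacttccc
Ccl12 and Ccl8 each held TATAAA, which starts 31 and 32 bases before the start site, and no other match. Ccl3 and Ccl6 held none of the 4 motifs in this window. Ccl9 held a kB match starting 35 bases and the AP-1 letters 53 bases before the start site, and TATAAA 3 times, of which 2 matches overlap in the letters TTTATAAA. Among 32817 promoters of the same length, 7.25% held the kB consensus, 6.75% the AP-1 letters, 9.57% the C/EBP letters and 12.4% TATAAA. A match is a description of the letters in the window, and the absence of a match says nothing about a factor.

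Of 6 receptor genes reported for the 9 ligands, 3 passed the filter, 2 fell in foamy libraries and none rose. Ccr2, the receptor of Ccl2, Ccl7 and Ccl12 and a marker of blood monocytes, stood at 6.07, 5.63 and 1.4 CPM in the foamy and at 242, 322 and 208 CPM in non-foamy replicates 1 to 3. Each foamy library lay far below each non-foamy one. Its log2 fold change was -5.87 (edgeR, SE 0.48, adjusted p = 6.1e-05). Ccr1, the receptor of Ccl3, Ccl5, Ccl6 and Ccl9, stood at 53.7, 49.3 and 62.7 CPM in the foamy and at 89.7, 178.7 and 94.4 CPM in non-foamy replicates 1 to 3. The groups did not overlap, and non-foamy replicate 2 was high. The log2 fold change was -1.13 (edgeR, SE 0.28, adjusted p = 0.0404). This call was lost in 7 of 15 alternatives, among them without foamy replicate 1, 2 or 3 (log2 fold change -1.10, -1.04 and -1.22) and without non-foamy replicate 2 (-0.73).

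Ccr3, a receptor of Ccl5 and Ccl7, stood at 3.72 ± 0.449 CPM (SD, n = 3) in the foamy and 6.82 ± 2.03 CPM in the non-foamy libraries (edgeR log2 fold change -0.87, SE 0.53, adjusted p = 0.431). Ccr8, the receptor of mouse Ccl8, had 47 counts in non-foamy replicate 3 and 0 in the other 5 libraries. The scavenging receptors, which bind chemokines without G protein signalling, were barely detected. Ackr1 had 4 counts and Ackr2 10 counts over all 6 libraries. The median log2 fold change of these 3 tested receptor genes was -1.13.

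**Figure D5:**
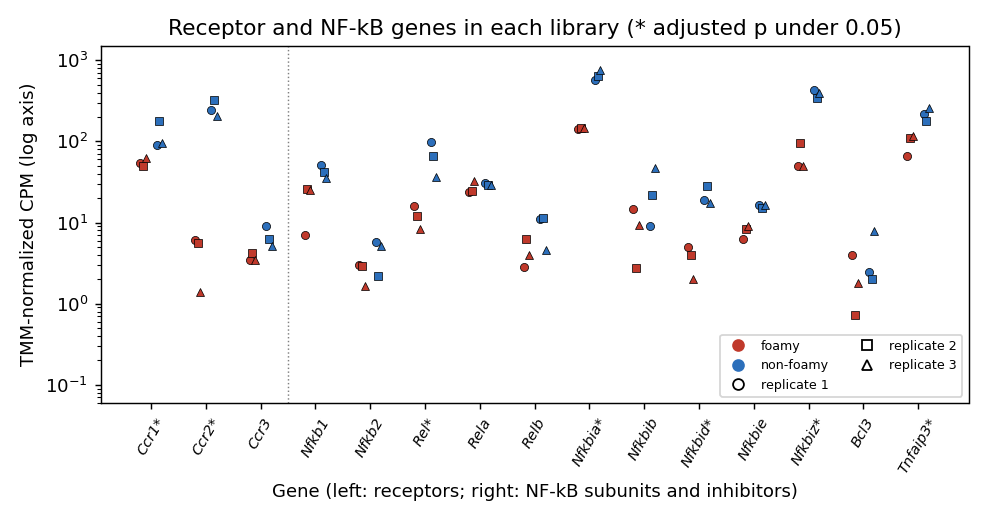
TMM-normalized CPM (log axis) in each library of the tested receptor genes (left) and the NF-kB subunit and inhibitor genes (right), foamy in red and non-foamy in blue, with a symbol per replicate; an asterisk marks an adjusted p under 0.05. Ccr2, Nfkbia and Nfkbiz show the widest gaps between the groups, with Ccr2 at 1.4 to 6.07 CPM in foamy libraries.

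Among 12 other CC chemokine genes, 5 passed the filter, 3 of them were lower in foamy libraries and none was higher. Ccl17, a ligand of Ccr4, had 0 counts in the 3 foamy libraries and 37, 149 and 28 counts in non-foamy replicates 1 to 3. With 3 counts over the foamy group as the limit that a count of 0 allows, it was at least 66.05-fold higher in non-foamy libraries (edgeR adjusted p = 0.0167). Non-foamy replicate 2 held most of these counts, and without it the 65 remaining counts gave a level at least 28.4-fold higher. Ccl22, which binds the same receptor, had 1 count in foamy libraries, in replicate 2, and 164 counts in non-foamy libraries, a ratio of 152 (exact 95% counting interval 26.9 to 6034; edgeR adjusted p = 0.0154). Ccl24, a ligand of Ccr3, stood at 0.159 ± 0.0608 CPM (SD, n = 3) in the foamy and 7.16 ± 5.55 CPM in the non-foamy libraries (edgeR log2 fold change -5.45, SE 0.95, adjusted p = 0.00713). Without non-foamy replicate 2, the library highest for Ccl17 and Ccl24, none of these calls held (edgeR adjusted p of 0.0876 for Ccl17, 0.0598 for Ccl22 and 0.0537 for Ccl24, the last with a log2 fold change of -4.69). Without foamy replicate 1, 2 or 3 the adjusted p was 0.0574, 0.0595 and 0.0605 for Ccl17 and 0.0828, 0.0551 and 0.0868 for Ccl22.

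Dendritic cells are known to make Ccl17 and Ccl22, and dendritic cell markers stood higher in the non-foamy libraries. The 7 markers summed to 0.332, 16 and 2.37 CPM in the foamy and 197, 256 and 33.5 CPM in non-foamy replicates 1 to 3, led by Cd209a. Of the defining genes, Flt3 was at 5.09 CPM in non-foamy replicate 1 and at or below 0.223 CPM in the other 5 libraries. Only Cd209a passed the filter, and it was not called (edgeR log2 fold change -4.95, adjusted p = 0.278). Their part in the Ccl17 and Ccl22 levels was not tested. Ccl25 stood at 7.43 ± 3.85 against 5.97 ± 4.94 CPM (edgeR log2 fold change 0.31, adjusted p = 0.880), and Ccl27a, which has near-identical copies and is uncertain, at 0.828 against 1.05 CPM (edgeR log2 fold change -0.35, adjusted p = 0.911). Ccl1, Ccl21a and Ccl26 had 0 counts in all libraries. Ccl11, Ccl19, Ccl20 and Ccl28 stayed at or below 0.557 CPM.

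Genes of the NF-kB system, whose dimers switch chemokine genes on and whose inhibitors are themselves NF-kB targets, fell in part. Of 12 tested, 5 were lower in foamy libraries and none was higher, and their median log2 fold change was -1.15. Nfkbia, which encodes the inhibitor that holds NF-kB in the cytoplasm, stood at 144.8 ± 1.97 CPM (SD, n = 3) in the foamy and 655 ± 97.1 CPM in the non-foamy libraries (edgeR log2 fold change -2.18, SE 0.18, adjusted p = 6.1e-05). Nfkbiz, a nuclear cofactor, stood at 65.0 ± 25.5 against 384 ± 42.5 CPM (edgeR log2 fold change -2.56, SE 0.27, adjusted p = 0.00026). Rel, a subunit, stood at 12.2 ± 3.94 against 67.3 ± 31.0 CPM (edgeR log2 fold change -2.47, adjusted p = 0.00403). Nfkbid stood at 3.66 ± 1.54 against 21.5 ± 5.61 CPM (edgeR log2 fold change -2.55, adjusted p = 0.00782). These 4 were called in all 15 alternatives. Rela, the other main subunit, was at 26.8 against 29.6 CPM (edgeR log2 fold change -0.14, adjusted p = 0.847), and its mRNA level does not measure its activity.

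Chemokine mRNAs are short-lived. RNA-binding proteins and nucleases that act on AU-rich or stem-loop elements of cytokine mRNAs affect their decay. Of 9 such genes tested, 2 were lower in foamy libraries and none was higher, and their median log2 fold change was -0.66. Zfp36, which encodes tristetraprolin, stood at 1046, 525 and 757 CPM in the foamy and at 1717, 3719 and 3453 CPM in non-foamy replicates 1 to 3. The groups did not overlap. The log2 fold change was -1.93 (edgeR, SE 0.32, adjusted p = 0.00499), in the same direction as that of the 5 chemokine genes. Its relative Zfp36l1 stood at 7.08 ± 2.37 CPM (SD, n = 3) against 24.4 ± 8.21 CPM (edgeR log2 fold change -1.79, SE 0.40, adjusted p = 0.0258). The Zfp36l1 call was lost without foamy replicate 1, 2 or 3 (log2 fold change -1.57, -1.75 and -2.06) and without non-foamy replicate 2 or 3 (-1.82 and -1.49).

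Other groups of genes moved with the 5 chemokines that fell. Immediate early and heat shock genes, which enzymatic digestion of tissue can induce, fell in 13 of 19 and rose in none, with a median log2 fold change of -1.21. Without foamy replicate 1, 2 or 3 the count of lower genes was 8, 8 and 6. Their summed level was 2119 to 2220.2 CPM in the foamy and 4491 to 4896 CPM in the non-foamy libraries. Nr4a1, a nuclear receptor of the immediate early response, stood at 21.1 ± 5.03 CPM (SD, n = 3) against 167 ± 12.5 CPM (edgeR log2 fold change -2.98, SE 0.24, adjusted p = 5.6e-05). Hspa1a and Hspa1b, near-identical heat shock genes whose split is uncertain, stood at 6.69 against 59.4 CPM and at 3.11 against 34.3 CPM, and Btg2 at 204 against 646 CPM. All cells were digested for 70 min at 37 °C after a first step of 8 min, and the part of digestion in the chemokine levels was not tested.

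Monocyte markers were lower in foamy libraries in 6 of 11 tested and higher in none. Their summed level over 13 genes was 88.1 to 113.6 CPM in the foamy and 531 to 670 CPM in the non-foamy libraries. Ccr2 and Cx3cr1 led the list, and Cx3cr1 stood at 26.6 ± 1.70 against 155 ± 11 CPM (SD, n = 3; edgeR log2 fold change -2.54, adjusted p = 5.6e-05). Plac8 had no more than 1 count in any foamy library and stood at 23.8 ± 1.18 CPM in the non-foamy libraries. Markers of resident-type arterial macrophages were lower in 6 of 8 tested, with summed levels of 341 to 551 CPM against 568 to 1207 CPM. Folr2, the most abundant of them, did not pass the test (282 ± 73.5 against 209 ± 42.8 CPM). Among 9 general macrophage markers, Cd68 and Mertk were higher, and Itgam, Adgre1 and Csf1r lower, in foamy libraries. Their part in the chemokine levels was not tested.

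Neutrophil markers summed to 2.47 to 6.69 CPM in the foamy and 2.64 to 35.1 CPM in the non-foamy libraries, with Ly6g at 0 in 5 of the 6 libraries, and of 3 tested S100a9 was lower in foamy libraries. All 7 mast cell and basophil markers were under 1 CPM in all libraries. B cell markers summed to 11.8 to 23.7 CPM, endothelial markers to 9.75 to 16.3 CPM and smooth muscle markers to 3.13 to 27.7 CPM, and no marker of these 3 lists passed the test. Ighm, the immunoglobulin heavy chain gene of B cells, is not in that marker list and was named by its likeness to Ccl3. It stood at 111, 75.9 and 79.9 CPM in the foamy and at 555, 678 and 641 CPM in non-foamy replicates 1 to 3 (edgeR log2 fold change -2.81, SE 0.21, adjusted p = 3.79e-05), and the groups did not overlap. The part of its source cells in the chemokine levels was not tested.

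The genes whose pattern over the 6 libraries was most like that of a chemokine were found by the root mean square distance between centred log2 levels, among 6081 tested genes with a mean of at least 10 CPM. Before the log, 0.5 CPM was added to each level. For Ccl2 the nearest gene was Cxcl2, which encodes a CXC chemokine of neutrophils, at a distance of 0.10. Cxcl2 stood at 472, 499 and 518 CPM in the foamy and at 2011, 3385 and 3101 CPM in non-foamy replicates 1 to 3. Tmem176a (0.19), Clec4a1 (0.21), Tmem176b (0.21) and Cx3cr1 (0.28) followed. The distance from Ccl2 to Ccl3, in the other region, was 0.27, and that to Ccl8, in its own region, was 1.09. For Ccl3 the nearest genes were Cxcl2 (0.27), Tmem176a (0.28), Sult1a1 (0.30), Tmem176b (0.30) and Ighm (0.31), and its neighbour Ccl4 lay at 0.26. Sult1a1 stood at 0.902 to 1.35 CPM in foamy libraries, so the added 0.5 CPM shortens its distance. Its edgeR log2 fold change was -4.0, against -3.0 for Ccl3. For Ccl6 the nearest genes were 1110012L19Rik (0.11), Rabl3 (0.13), Slc9a3r1 (0.13), Plgrkt (0.15) and Cerk (0.16), and Ccl9 lay at 0.27. The points are 6 libraries in 2 groups, so these distances are a description and carry no test.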

How the data were processed

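RNA of sorted foamy and non-foamy intimal macrophages was sequenced in bulk, 3 libraries each. Per the labels' protocols, cDNA came from the SMARTer Ultra Low kit, 12 cycles of amplification and single 50-base reads; no molecular identifiers are named. GRCm38, STAR 2.0.4b, featureCounts 1.4.5 and Subread are named in the submitters' processing notes. Strand use, and what was done with multi-mapping reads, is not given in the sources used here. The deposited counts are whole reads per gene for 41388 Ensembl genes. The deposited CPM equal the count divided by the total in genes, times a constant, and the deposited RPKM equal that per kilobase of the deposited length, up to an absolute tolerance of 1e-06; both were used only in that check.

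Symbols matched for 40254 genes (97.26%), with at least 99.71% of each library's counts, and all 9 members had the same coordinates in GENCODE M21. Counts were tested with edgeR 4.0.16 in R 4.3.3 (filterByExpr, TMM, robust quasi-likelihood F-test, Benjamini-Hochberg over 11303 genes, threshold 0.05) on all 6 libraries without a block. TMM factors were 0.868 to 0.966 (foamy) and 1.035 to 1.186 (non-foamy). The SE was derived from the F statistic and the log2 fold change. The procedure was tested on simulated data. Within groups, chi-square per degree of freedom between libraries was 54.55 to 164.3, so none agreed within sampling noise. Library ratios were tested with scipy 1.17.1.

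The members and gene lists were chosen with earlier results of these data known. Named are all members, their receptors and other CC chemokines; in the NF-kB, decay and immediate early lists up to 4 called genes by p; called neighbours and up to 4 of the most abundant; up to 3 abundant markers a list; and the 5 genes nearest to Ccl2, Ccl3 and Ccl6. Rela, general macrophage markers and the defining markers Cd3d, Cd3e, Trac, Flt3, Ly6g and Plac8 were named after their values were seen. The same holds for the values of the neighbours AA465934, Snord7 and Taf15. A receptor, a neighbouring gene and a sequence are not reported here and are left out of the counts of their lists. Alternatives were RLE and upper-quartile factors, total counts alone, DESeq2 1.42.0, limma-voom (limma 3.58.1), no filter, a stricter filter (mean of 5 CPM, and 10 counts in 3 libraries), a block for the replicate number, a test against a 1.5-fold change, 0.5 counts added in ratios, and each library left out.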

Additional observations from a re-analysis of the deposited data

How the results depend on the processing

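Each test rests on 3 libraries a group, and reads without molecular identifiers are not independent molecules, so counting intervals and limits cover counting error only. The numbers of members called lower (5) and higher (0) were the same in all 15 alternatives. Among all genes, 611 were called, against 1173 with DESeq2, 391 with the replicate number as a block, 276 against a 1.5-fold change and 271 to 579 with each library left out. Genes called lower numbered 328, against 614 with total counts alone, 645 with DESeq2, 171 against a 1.5-fold change and 158 to 294 with each library left out. Genes called higher numbered 283, against 165 with total counts alone, 528 with DESeq2, 457 with no filter, 159 with the replicate block, 105 against a 1.5-fold change and 113 to 285 with each library left out. Over all tested genes, same-numbered libraries did not deviate together (correlations of -0.103, -0.029 and -0.039 for numbers 1 to 3). No library correlated best with its own number. Whether same-numbered libraries share mice or a day is not given here, and these correlations cannot decide it. The block changed no call of a member and ended the Ccr1 call.

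Receptor genes called lower were 2, against 1 with limma-voom, the replicate block or the 1.5-fold test and 1 to 2 with each library left out. Other CC chemokines called lower were 3, against 1 with limma-voom, 0 with the stricter filter, which keeps neither Ccl17, Ccl22 nor Ccl24, and 0 to 3 with each library left out. Decay factors called lower were 2, against 1 in the 1.5-fold test and 1 to 2 with each library left out. Immediate early and heat shock genes called lower were 13, against 8 in the 1.5-fold test and 6 to 13 with each library left out. Of the neighbours of the Ccl5 to Ccl4 region 0 were called, against 1 with DESeq2 and 1 with no filter, which was Wfdc17. Signs turned in genes that were not called, and the cause was not tested. With each library left out, the log2 fold change of Ccl5 ran from -2.37 to 0.53, above 0 without non-foamy replicate 3. That of Ccl9 was 0.084 with limma-voom, 0.0068 with no filter, 0.088 with the replicate block and -0.41 to 0.33 with each library left out, above 0 without foamy replicate 1 or non-foamy replicate 2 or 3. With each library left out, Ccl25 ran from -0.19 to 1.19, Ccl27a from -0.70 to 0.68 and Rabl3 from -0.015 to 0.59. With the stricter filter Ccl25 was the only other CC chemokine left, so the median of 0.29 is the log2 fold change of that gene alone.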
